A study of Mus musculus with 79 samples.

Results

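Cnmd, Col24a1, Fbln2, Matn2, Ptprz1, Hapln1, Hapln4, Bcan, Ncan and Tnr, all genes of the extracellular matrix or its receptors, were followed through 79 RNA libraries of nuclei sorted from the mouse visual cortex, in which neurons had been silenced with the potassium channel Kir2.1 during dark housing. They are 10 of the 55335 genes counted. Cnmd, Col24a1, Fbln2, Matn2 and Ptprz1 were chosen by their measured difference between Kir2.1 and mutant Kir2.1 in transduced VIP nuclei or transduced neurons. Hapln1, Hapln4, Bcan, Ncan and Tnr, components of perineuronal nets, were set beside them as members of the same matrix. The differences that chose the first 5 are therefore given as a description, with no test.

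The matrix of the adult brain holds little fibrillar collagen and is built largely on hyaluronan, a long sugar chain to which proteoglycans of the lectican family bind, with link proteins holding that bond and tenascins joining lecticans to each other. Where this mesh condenses around the soma and proximal dendrites of a neuron it is called a perineuronal net, best known around parvalbumin interneurons of the cortex and associated with the decline of plasticity after the critical period. Other matrix proteins, such as fibulins, matrilins and short collagens, are secreted by restricted cell types and bind growth factors, microfibrils or basement membranes.

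All mice, uninjected ones included, carried INTACT wt/ki together with VIP Cre wt/ki, so that nuclei of neurons expressing vasoactive intestinal peptide (VIP), a class of GABAergic interneuron, carried a tag for sorting. Injected mice received either AAV-Syn1-Kir2.1-2a-mScarlet-KASH or the same virus with Kir2.1(Mutant) in its place, in the visual cortex at 55 to 60 days of age, and the Syn1 promoter drives expression in neurons of every class. All groups, the uninjected one included, were labelled 10 days dark housed; the protocol gives 10 to 12 days, starting 3 days after injection, and it also names tissue taken after 1 h of light, which no label here does. Nuclei with the vector (transduced) and without it (non-transduced) were sorted from the injected cortex, so a non-transduced nucleus came from tissue in which other neurons were silenced. The Kir2.1 vector was represented by 10 transduced VIP, 10 non-transduced VIP, 8 transduced neuron and 10 non-transduced all-nuclei libraries. The mutant had 9, 9, 8 and 9 of these, and uninjected mice contributed 3 VIP and 3 all-nuclei libraries. Both sexes were present in every injected group, and the 6 libraries without AAV were from males. The series asked what activity that remains in darkness does to gene expression.

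Each library held 50 to 100 nuclei and 3219899 to 9267246 counts (median 6170915). Levels are counts per 1000000 counts (CPM), with library size scaled by trimmed means (TMM), given as mean ± SD over libraries. The titles number the libraries as biological replicates without naming their animals, and the tests treat the libraries as independent. The p-values therefore cover only the spread among the libraries given here. In such bulk samples fewer cells of a type and less RNA per cell cannot be told apart. Kcnj2, the gene of Kir2.1, averaged 416 to 776 CPM in the 4 transduced groups and 5.59 to 33.0 CPM in the other 6, so it marks the vector but not which form of the channel it carries. Among these, it averaged 15.4 to 33.0 CPM in non-transduced nuclei of injected mice and 5.59 and 7.11 CPM without AAV. All non-transduced nuclei with Kir2.1 reached 149 CPM, above the lowest library of transduced neurons with Kir2.1 (138 CPM). Whether this was RNA of the vector was not tested. Vip averaged 1635 to 5279 CPM in the 5 groups of VIP nuclei and 0.603 to 9.55 CPM in the other 5, and Slc17a7, the vesicular glutamate transporter of cortical excitatory neurons, averaged 66.2 and 67.9 CPM in transduced neurons and 2.97 to 6.28 CPM in VIP nuclei. In 4 cases a library stood apart from its group's profile: replicate 1 of each vector in transduced VIP nuclei, replicate 9 of Kir2.1 in non-transduced VIP nuclei and replicate 10 of Kir2.1 in transduced neurons.

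The sequence around the start sites of Cnmd, Col24a1, Fbln2 and Ptprz1 is shown because these 4 moved in the same VIP nuclei. Each run is the RefSeq promoter of GRCm38.p6, the assembly that mm10 names, from 250 bases before to 50 after the start, written 5′ to 3′ on the gene's strand, with matches to the searched motifs in capitals. The motifs were the AP-1 site TGANTCA, the cAMP response element TGACGTCA, its core TGACG and the MEF2 core (CTA and TAG with 4 bases of any kind between), each on both strands, chosen because AP-1, CREB and MEF2 are families of factors known to act downstream of neuronal activity.
Cnmd (chr14:79662134-79662433, minus strand): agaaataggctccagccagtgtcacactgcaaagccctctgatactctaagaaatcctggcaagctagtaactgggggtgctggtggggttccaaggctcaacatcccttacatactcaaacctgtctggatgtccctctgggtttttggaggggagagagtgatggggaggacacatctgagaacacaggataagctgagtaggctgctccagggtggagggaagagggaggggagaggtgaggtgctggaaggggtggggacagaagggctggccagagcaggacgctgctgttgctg
Col24a1 (chr3:145292222-145292521, plus strand): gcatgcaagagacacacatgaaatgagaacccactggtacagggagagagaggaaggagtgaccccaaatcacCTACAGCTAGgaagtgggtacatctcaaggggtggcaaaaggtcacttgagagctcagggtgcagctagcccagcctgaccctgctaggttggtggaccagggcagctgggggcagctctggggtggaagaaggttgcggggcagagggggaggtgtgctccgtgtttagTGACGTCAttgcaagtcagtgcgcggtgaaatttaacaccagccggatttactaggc
Fbln2 (chr6:91212514-91212813, plus strand): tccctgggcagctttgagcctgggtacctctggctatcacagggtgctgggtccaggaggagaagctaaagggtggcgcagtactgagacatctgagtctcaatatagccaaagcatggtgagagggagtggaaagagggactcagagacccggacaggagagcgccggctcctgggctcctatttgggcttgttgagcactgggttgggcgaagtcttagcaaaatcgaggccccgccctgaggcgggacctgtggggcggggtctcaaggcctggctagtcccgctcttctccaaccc
Ptprz1 (chr6:22875252-22875551, plus strand): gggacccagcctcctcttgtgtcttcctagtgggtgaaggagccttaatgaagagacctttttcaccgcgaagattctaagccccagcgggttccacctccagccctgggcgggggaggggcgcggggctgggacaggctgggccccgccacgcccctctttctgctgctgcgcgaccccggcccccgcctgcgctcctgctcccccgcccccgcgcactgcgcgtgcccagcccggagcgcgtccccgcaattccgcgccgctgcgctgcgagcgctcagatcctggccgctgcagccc
The Col24a1 promoter held a full cAMP response element that began 7 bases before the start, in which both core matches lie, and the MEF2 match CTACAGCTAG that began 177 bases before it. The full element was in 1.79% and the MEF2 core in 3.686% of the 32851 promoters of the same length. The promoters of Cnmd, Fbln2 and Ptprz1 held none of the 4 motifs, against 7.808% of promoters with an AP-1 match and 20.81% with the core; this says only that these letters are not in these windows. Of the 8 members with a RefSeq promoter, Hapln1 had the core 29 bases after its start and Tnr a MEF2 match, CTACTTGTAG, 54 bases before it, and Bcan and Ncan had no match. Matn2 and Hapln4 were not matched. By GC content, the Ptprz1 promoter was at 71.67% with 29 CpG sites and the Cnmd promoter at 56% with 1, against medians over all promoters of 52.67% and 7.

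In line of the choice, Cnmd, Col24a1 and Ptprz1 were lower and Fbln2 higher with Kir2.1 in transduced VIP nuclei, and Matn2 was higher in transduced neurons. The 5 net components, which were not chosen for a difference, lay within overlapping ranges, as did Cnmd in transduced VIP nuclei. The plot of the first 5 genes by library shows these values. In the comparison of vectors in transduced VIP nuclei, 1.39% of the 21207 genes tested passed edgeR's quasi-likelihood test at an adjusted p of 0.05, and 4 of the 10 members lie past that threshold (Fbln2 higher, Cnmd, Col24a1 and Ptprz1 lower). This comparison chose them, so the count restates the choice and nothing is read from it. Without the 2 transduced VIP libraries that stand apart, the log2 fold changes were -3.92 for Cnmd, -3.08 for Col24a1, 1.21 for Fbln2 and -1.0 for Ptprz1, and without that of the neurons Matn2 was at 1.55.

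**Figure D1:**
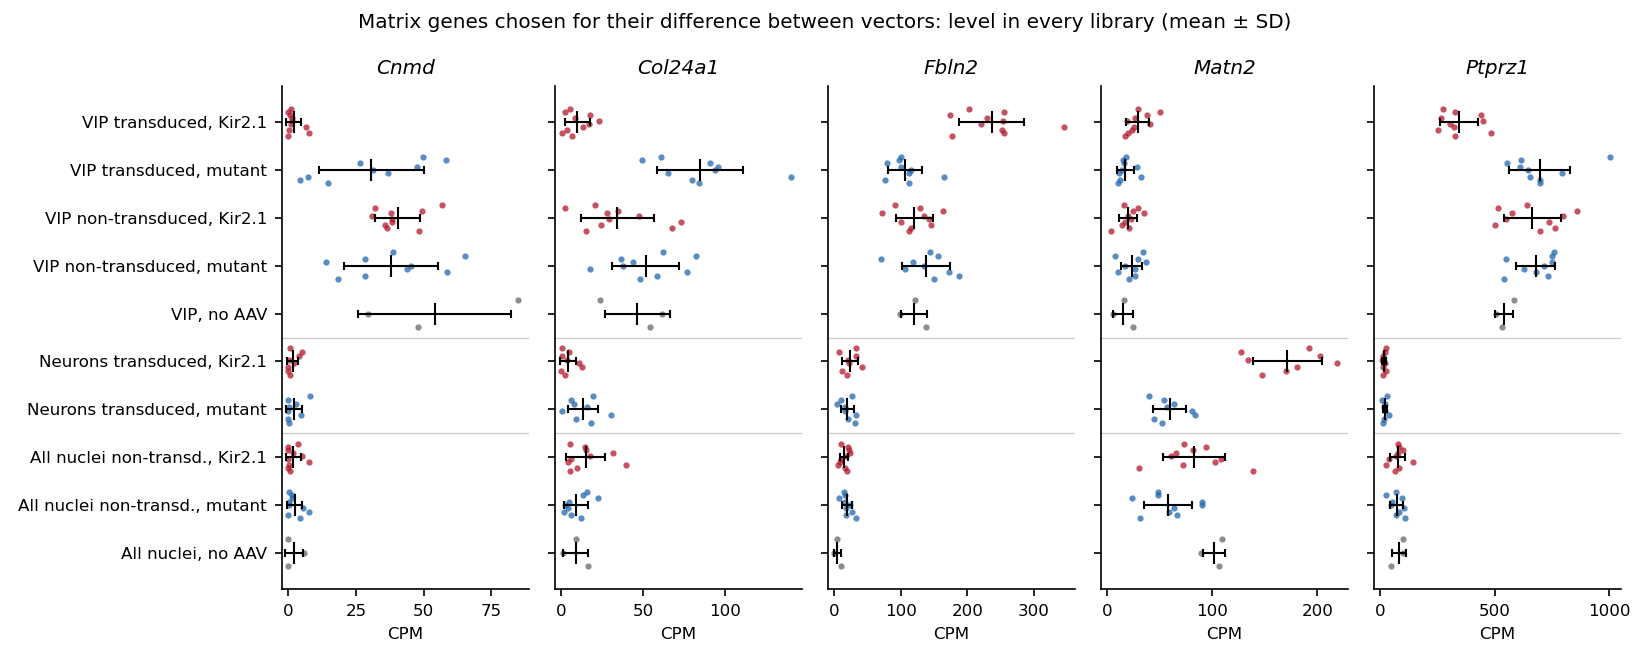
Level of Cnmd, Col24a1, Fbln2, Matn2 and Ptprz1 in CPM (horizontal axes, linear) in each of the 79 libraries by group; points are libraries (red Kir2.1, blue mutant, grey no AAV) and black bars are mean ± SD. With Kir2.1 in transduced VIP nuclei, Cnmd averaged 1.92 CPM, Col24a1 9.60 and Ptprz1 344 CPM, below the 4 other VIP groups, and Fbln2 averaged 237 CPM, above them; Matn2 stood highest in transduced neurons with Kir2.1, at 171 CPM.

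Cnmd encodes chondromodulin, a membrane glycoprotein whose cleaved ectodomain enters cartilage matrix and inhibits the growth of vessels. The gene (ENSMUSG00000022025) lies on the minus strand of chromosome 14, 79637690 to 79662170 in mm10. In transduced VIP nuclei with Kir2.1 the lowest library held 0 CPM, the median 0.917 CPM and the highest 7.71 CPM, with 0 counts in 2 of 10 libraries, where a 0 allows up to 3 counts by counting error alone. With the mutant the lowest, median and highest were 4.2, 31.3 and 58.4 CPM. In all, 8 of the 10 Kir2.1 libraries lay below every mutant library; the ranges overlapped through Kir2.1 replicates 2 and 4 (7.71 and 6.41 CPM) and mutant replicates 2 and 3 (4.2 and 7.21 CPM). The fitted difference was a log2 fold change of -3.95 ± 0.51 (SE), or 15.4-fold lower, and -4.56 without Kir2.1 replicate 2. The mean with Kir2.1, 1.92 ± 2.77 CPM (SD, n = 10), was in the range of the groups that hold no or few VIP nuclei, from 1.56 ± 1.95 CPM (n = 8) in transduced neurons with Kir2.1 to 2.30 ± 2.80 CPM (n = 9) in all nuclei with the mutant. Cnmd was not tested between vectors in transduced neurons, where the filter on low counts removed it.

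Col24a1 encodes a minor fibrillar collagen known from developing bone and cornea. It is ENSMUSG00000028197 on the plus strand of chromosome 3, 145292472 to 145552011. With Kir2.1 in transduced VIP nuclei its libraries ran from 0.128 CPM over a median of 7.35 CPM to 22.7 CPM, and with the mutant from 49.3 over 84.1 to 140 CPM. The 2 groups did not overlap, and the fitted log2 fold change was -3.12 ± 0.43, or 8.69-fold lower. The mutant group was itself the highest of all 10 groups, at 84.4 ± 26.3 CPM (n = 9), against 51.4 ± 20.6 CPM (n = 9) in non-transduced VIP nuclei of the same vector and 46.4 ± 20.0 CPM (n = 3) without AAV. In transduced neurons Col24a1 was low with both vectors, 4.17 ± 4.85 CPM with Kir2.1 and 13.2 ± 9.35 CPM with the mutant (n = 8 each), the ranges overlapped, and the log2 fold change was -1.62 ± 0.74.

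Fbln2 encodes fibulin-2, a secreted glycoprotein that binds fibronectin, fibrillin and the lecticans. It is ENSMUSG00000064080 on the plus strand of chromosome 6, 91212455 to 91272540. The Kir2.1 libraries of transduced VIP nuclei ran from 174 CPM over a median of 241 CPM to 345 CPM, and the mutant libraries from 76.2 over 101 to 164 CPM. All 10 Kir2.1 libraries lay above all 9 mutant libraries, with a log2 fold change of 1.17 ± 0.17, or 2.25-fold higher. In transduced neurons the means were 23.3 ± 11.6 CPM with Kir2.1 and 19.6 ± 10.1 CPM with the mutant (n = 8 each), the ranges overlapped, and the log2 fold change was 0.29 ± 0.36. Fbln2 is also known from vessels and meninges; the 10 vascular and fibroblast markers summed to 6.78 to 25.5 CPM per library with Kir2.1 (median 12.4) and to 2.28 to 16.5 CPM with the mutant (median 5.67). None of the 7 that were tested passed, their median log2 fold change was 2.12, and Cldn5, a gene of endothelial tight junctions, was at 0 in every mutant library and at 0.469 CPM at most with Kir2.1. The part of these cells in the Fbln2 difference was not tested.

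Ptprz1 encodes a receptor tyrosine phosphatase whose large ectodomain is itself a chondroitin sulfate proteoglycan (phosphacan when secreted) and binds tenascins, contactins and the growth factor pleiotrophin; it is best known from astrocytes and oligodendrocyte precursors. It is ENSMUSG00000068748 on the plus strand of chromosome 6, 22875502 to 23052916. With Kir2.1 in transduced VIP nuclei the lowest, median and highest libraries were at 253, 322 and 485 CPM, and with the mutant at 553, 655 and 1002 CPM. The groups did not overlap, and the log2 fold change was -1.0 ± 0.14, or 2.00-fold lower. In transduced neurons it stood at 16.4 ± 7.31 CPM with Kir2.1 and 18.5 ± 9.08 CPM with the mutant (n = 8 each), with a log2 fold change of -0.12 ± 0.34. The 10 astrocyte markers, which do not include Ptprz1, summed to 260 to 409 CPM with Kir2.1 and 331 to 531 CPM with the mutant in transduced VIP nuclei, and the 8 markers of oligodendrocyte precursors to 109 to 265 CPM and 143 to 356 CPM. Of their defining genes, Aqp4 averaged 2.19 and 0.600 CPM and Pdgfra 7.32 and 8.16 CPM; the part of these cells in the Ptprz1 difference was not tested.

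Matn2 encodes matrilin-2, an adaptor protein that forms filaments and links collagens and other matrix proteins. It is ENSMUSG00000022324 on the plus strand of chromosome 15, 34306677 to 34436273, and its exons overlap those of 9430069I07Rik on the opposite strand, whose reads the library kit does not separate from its own. In transduced neurons the Kir2.1 libraries ran from 127 CPM over a median of 175 CPM to 219 CPM and the mutant libraries from 39.2 over 55.3 to 83.4 CPM. The groups of 8 did not overlap, and the log2 fold change was 1.58 ± 0.17, or 2.99-fold higher with Kir2.1. In this comparison 5.63% of the 15949 genes tested passed, and of the 9 members tested 1 lies past the threshold, Matn2, which was chosen by it; nothing is read from this count either. In transduced VIP nuclei Matn2 was low, at 28.8 ± 10.9 CPM with Kir2.1 (n = 10) and 17.2 ± 7.84 CPM with the mutant (n = 9), with overlapping ranges and a log2 fold change of 0.76 ± 0.33. Beside the Matn2 values, the 7 pan-GABAergic markers (8 entries of the count table) summed to 69.8 to 841 CPM per library with Kir2.1 and 421 to 1144 CPM with the mutant in transduced neurons, and the astrocyte markers to 278 to 408 CPM and 488 to 632 CPM; their part in the result was not tested.

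The class markers of the VIP nuclei moved with the vector as well. The 12 VIP neuron markers summed to 7632 to 13031 CPM per library with Kir2.1 and to 18157 to 21193 CPM with the mutant in transduced nuclei, and 6 of the 12 passed the test, all lower. Of the 10 excitatory markers 1 passed, higher, and the list summed to 919 to 1479 CPM and 536 to 679 CPM; Slc17a7 averaged 6.28 and 3.8 CPM. Of the 8 parvalbumin markers 2 passed, lower, as did 2 of the 8 pan-GABAergic entries and 1 of the 10 astrocyte markers. The part of these differences in those of Cnmd, Col24a1, Fbln2 and Ptprz1 was not tested.

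The ranges of Hapln1, Hapln4, Bcan, Ncan and Tnr overlapped between vectors in both transduced populations, as the plot of these 5 net components shows. Ptprz1, whose ranges did not overlap in transduced VIP nuclei, is also on the list of hyaluronan and net genes used below. Tnr, which encodes tenascin-R, the tenascin that crosslinks lecticans in nets, is ENSMUSG00000015829 on the plus strand of chromosome 1, 159523769 to 159931729, and its exons overlap those of Gm38039 on the opposite strand. In transduced VIP nuclei it ran from 102 over a median of 131 to 217 CPM with Kir2.1 and from 70.3 over 111 to 160 CPM with the mutant, with overlapping ranges. The log2 fold change was 0.34 ± 0.17, and its 95% interval, from the SE, ran from 0.007 to 0.67, just above 0 and with no adjustment for the number of genes. In transduced neurons Tnr was higher, at 479 ± 127 CPM with Kir2.1 and 500 ± 92.7 CPM with the mutant (n = 8 each), and the 95% interval of the log2 fold change ran from -0.31 to 0.28.

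**Figure D2:**
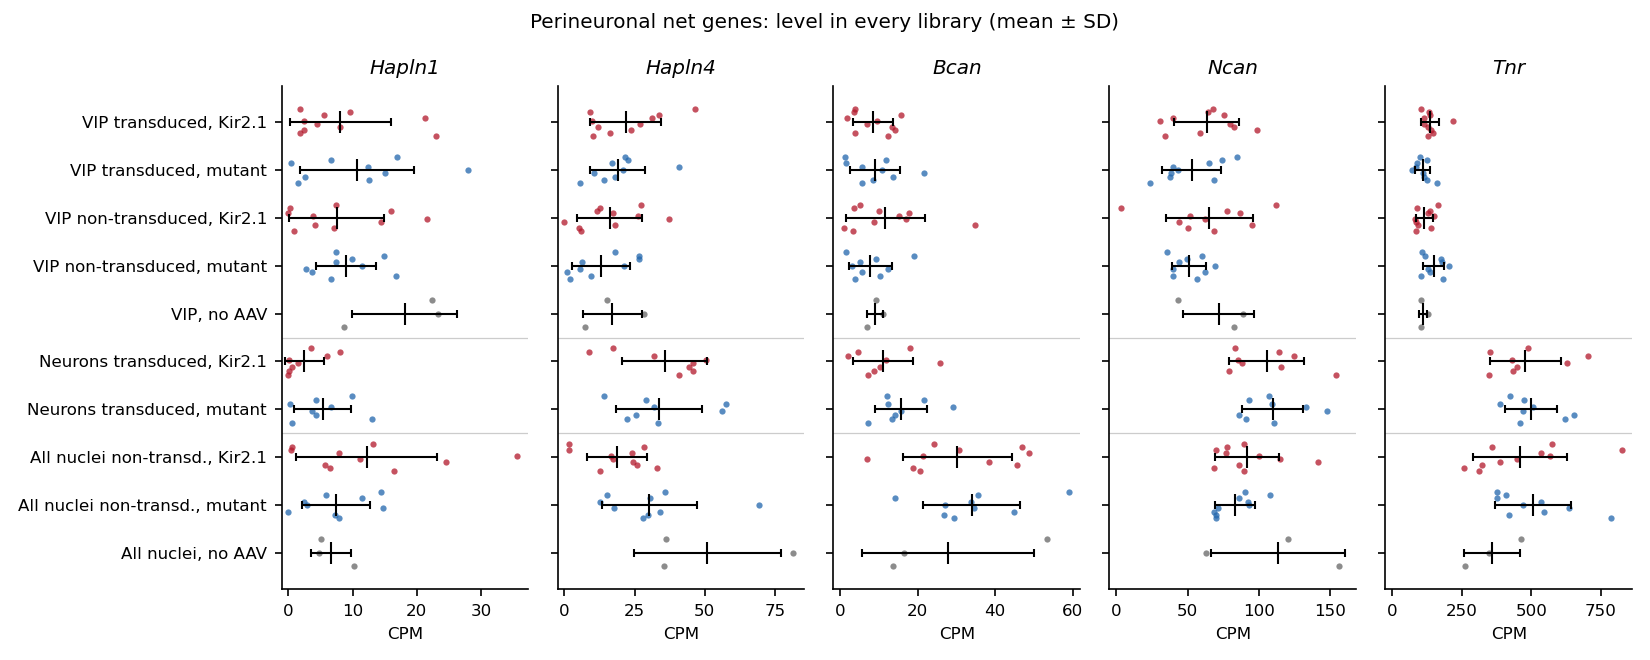
Level of Hapln1, Hapln4, Bcan, Ncan and Tnr in CPM (horizontal axes, linear) in each of the 79 libraries by group; points are libraries (red Kir2.1, blue mutant, grey no AAV) and black bars are mean ± SD. The red and blue points of a population overlap in every panel, and Tnr averaged 479 and 500 CPM in transduced neurons against 109 to 149 CPM in the VIP groups.

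Ncan and Bcan encode the brain lecticans neurocan and brevican. Ncan (ENSMUSG00000002341, minus strand of chromosome 8, 70093085 to 70120873) averaged 63.3 ± 22.5 CPM with Kir2.1 and 53.0 ± 20.6 CPM with the mutant in transduced VIP nuclei, and 106 ± 26.2 and 110 ± 21.3 CPM in transduced neurons. Its intervals of the log2 fold change ran from -0.29 to 0.85 and from -0.33 to 0.32. Bcan (ENSMUSG00000004892, minus strand of chromosome 3, 87987531 to 88000230) was at 8.45 ± 5.18 and 8.88 ± 6.44 CPM in transduced VIP nuclei, with an interval from -1.09 to 0.97, and at 11 ± 7.66 and 15.7 ± 6.84 CPM in transduced neurons, with an interval from -1.24 to 0.32. The Bcan intervals both reach beyond a 2-fold decrease, so such a decrease was not excluded.

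Hapln1 and Hapln4 encode link proteins, which fasten lecticans to hyaluronan. Hapln1 (ENSMUSG00000021613, plus strand of chromosome 13, 89539796 to 89611652) averaged 8.04 ± 7.86 and 10.7 ± 8.91 CPM with Kir2.1 and mutant in transduced VIP nuclei and 2.5 ± 3.09 and 5.35 ± 4.42 CPM in transduced neurons, with log2 fold changes of -0.41 ± 0.64 and -1.03 ± 0.86. Hapln4 (ENSMUSG00000007594, plus strand of chromosome 8, 70083457 to 70090862) averaged 21.9 ± 12.6 and 19.0 ± 9.88 CPM, and 35.7 ± 15.1 and 33.7 ± 15.4 CPM, with log2 fold changes of 0.22 ± 0.50 and 0.13 ± 0.31. The ranges overlapped in each case. In transduced VIP nuclei and transduced neurons the intervals ran from -1.66 to 0.84 and from -2.71 to 0.65 for Hapln1. For Hapln4 they ran from -0.76 to 1.20 and from -0.47 to 0.73. The Hapln1 intervals are wider than those of Bcan, so a decrease as large as that named for Bcan was not excluded. In the annotation Hapln4 and Ncan are neighbours on chromosome 8, with 2222 bases and no annotated gene between them, and Hapln1 lies 43659 bases from Vcan, the gene of versican.

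The same vectors could be compared in nuclei sorted as non-transduced, in libraries that the choice of genes did not use. Among non-transduced VIP nuclei 0 of 21207 genes (0%) passed edgeR's test, 1843 had an unadjusted p under 0.05, and DESeq2 called 14; none of the 10 members passed in either, and Tnr alone had an unadjusted p under 0.05 (log2 fold change -0.37 ± 0.17, adjusted p = 0.498 by edgeR). Cnmd averaged 40.5 ± 8.34 CPM with Kir2.1 (n = 10) and 37.9 ± 17.4 CPM with the mutant (n = 9), and the interval of its log2 fold change ran from -0.78 to 0.97. Ptprz1 averaged 663 ± 125 and 678 ± 85.3 CPM, with an interval from -0.30 to 0.23, and Fbln2 121 ± 27.6 and 138 ± 35.8 CPM, with an interval from -0.52 to 0.13; the vascular and fibroblast markers reached 302 CPM in 1 Kir2.1 library of these nuclei. Col24a1 had the largest fold difference of the 5 genes chosen for theirs, 34.0 ± 22.3 against 51.4 ± 20.6 CPM, with an interval from -1.38 to 0.20 and an adjusted p of 0.733 by edgeR. Whether the effect of the vector differed between transduced and non-transduced nuclei was not tested, since that test would hold the comparison that chose the genes.

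Among all non-transduced nuclei 0 of 21362 genes (0%) passed edgeR's test, 1289 had an unadjusted p under 0.05, and DESeq2 called 2. None of the 10 members passed in either. Matn2 had the smallest p, at 82.6 ± 29.8 CPM with Kir2.1 (n = 10) and 57.7 ± 23.3 CPM with the mutant (n = 9), a log2 fold change of 0.53 ± 0.24 (adjusted p = 0.802 by edgeR); all nuclei without AAV averaged 102 ± 10.9 CPM (n = 3), within the range of the Kir2.1 libraries (30.3 to 138 CPM). The 5 net components had log2 fold changes between -0.68 (Hapln4) and 0.72 (Hapln1).

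Within 1 vector, transduced VIP nuclei were set against non-transduced VIP nuclei from mice with that vector. The transduced Kir2.1 libraries are those in which the genes were chosen, so the values of Cnmd, Col24a1, Fbln2, Matn2 and Ptprz1 are again a description, with no p-value. With Kir2.1, 0.769% of 21207 genes passed edgeR's test and 4 of the 10 members lie past its threshold, from which nothing is read. Cnmd was 20.4-fold lower, at 1.92 against 40.5 CPM, with a log2 fold change of -4.35 ± 0.51, and all 10 transduced libraries lay below all 10 others; without transduced replicate 2 the log2 value was -4.95. Ptprz1 was 1.91-fold lower, at 344 against 663 CPM (-0.94 ± 0.13), and Fbln2 1.98-fold higher, at 237 against 121 CPM (0.99 ± 0.16), both with no overlap. Col24a1 was 3.51-fold lower, at 9.60 against 34.0 CPM (-1.81 ± 0.41), with overlapping ranges. The non-transduced Col24a1 range starts at 2.41 CPM, in replicate 9, a library that stands apart; without such libraries the log2 fold change was -1.91. Matn2 had a log2 fold change of 0.55 ± 0.31, and the 5 net components had adjusted p-values from 0.745 (Tnr) to 0.997 by edgeR.

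With the mutant, 0.00943% of 21207 genes passed between transduced and non-transduced VIP nuclei. None of the net components passed by edgeR or DESeq2, though Tnr had an unadjusted p under 0.05 by edgeR. The transduced mutant libraries are the other arm of the comparison that chose the genes. Values of the chosen genes are therefore not independent of the choice either. None of the chosen genes lies past the threshold, from which nothing is read. Ptprz1 averaged 696 ± 133 and 678 ± 85.3 CPM, with a log2 fold change of 0.03 ± 0.14. Cnmd averaged 30.7 ± 19.3 and 37.9 ± 17.4 CPM, with -0.31 ± 0.46. Col24a1, at 84.4 and 51.4 CPM, had 0.71 ± 0.41, and Fbln2, at 107 and 138 CPM, had -0.37 ± 0.17. Tnr, at 109 and 149 CPM, had -0.46 ± 0.17 (adjusted p = 0.562 by edgeR), and the transduced mutant group had its lowest mean of all groups. The plot of fold changes sets these side by side with the comparisons between vectors.

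**Figure D3:**
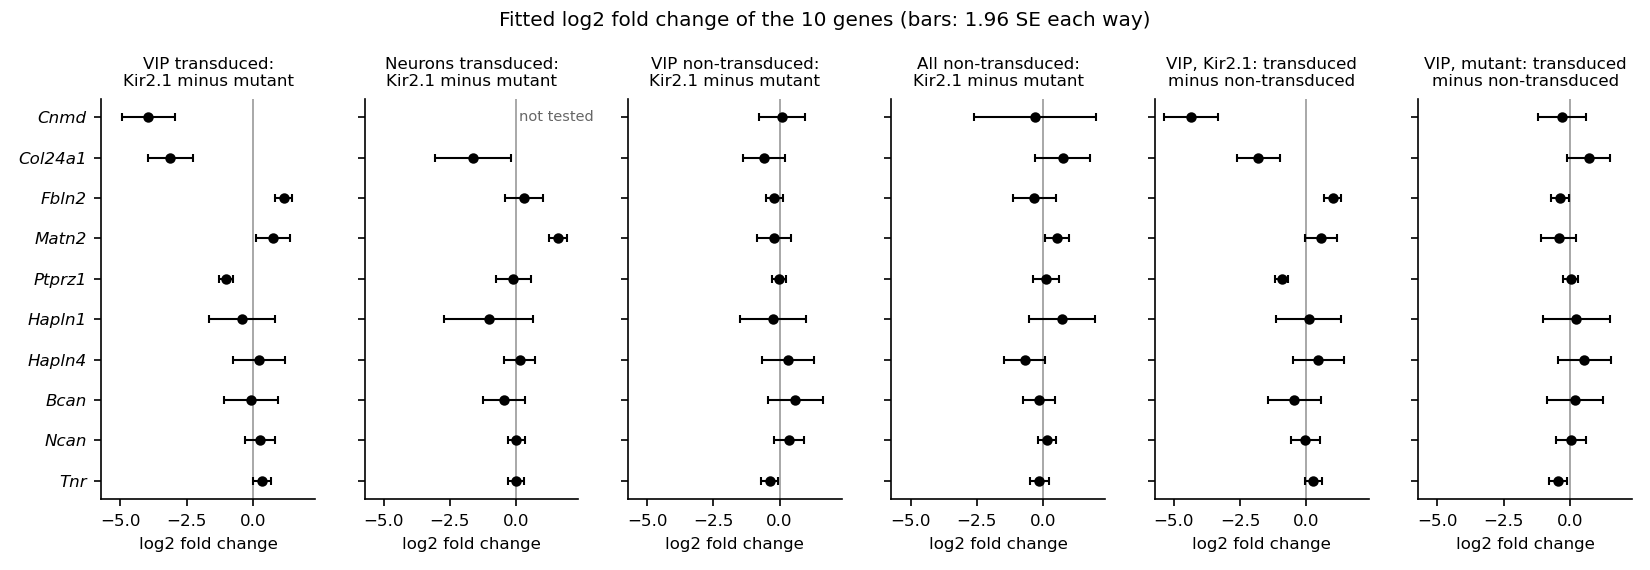
Fitted log2 fold change (horizontal axes) of the 10 genes (rows) in 6 comparisons; points are edgeR estimates and bars their 95% intervals. Cnmd, Col24a1, Fbln2 and Ptprz1 lie away from 0 in transduced VIP nuclei against the mutant and against non-transduced nuclei of the same vector (Cnmd -3.95 and -4.35), and Matn2 in transduced neurons (1.58); the first 2 panels chose the genes and carry no test.

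Which cells hold these RNAs was tested in nuclei sorted as non-transduced or from uninjected mice. The test set 22 libraries of VIP nuclei against 22 of all nuclei, with vector (Kir2.1, mutant or none) as a term. The choice of genes did not use these libraries. In this comparison 32.6% of 20591 genes passed and 8 of the 10 members did, 4 in each direction, with a median log2 fold change of -0.31 against -0.03 over all genes. The 4 genes chosen in VIP nuclei were all higher there. A gene must be expressed in VIP nuclei for a change in them to be measured, so this direction is not independent of the choice. Cnmd averaged 41.3 CPM in VIP nuclei and 2.03 CPM in all nuclei, a log2 fold change of 4.32 ± 0.47 (adjusted p = 6.18e-11). Ptprz1 averaged 652 and 74.7 CPM (3.12 ± 0.15, adjusted p = 2.54e-24) and Fbln2 127 and 15.2 CPM (3.14 ± 0.22, adjusted p = 1.28e-17). These 3 genes had no overlap between the groups of 22 libraries. Col24a1 was higher by 1.89 ± 0.33, at 42.8 and 11.6 CPM, with overlapping ranges (adjusted p = 4.07e-06).

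Matn2 and 3 of the net components ran the other way. Tnr averaged 128 CPM in VIP nuclei and 465 CPM in all nuclei, with no overlap (log2 fold change -1.86 ± 0.12, adjusted p = 1.26e-18). Matn2 averaged 20.5 and 75 CPM (-1.86 ± 0.21), Bcan 9.69 and 31.4 CPM (-1.72 ± 0.28) and Ncan 60.3 and 91.0 CPM (-0.61 ± 0.17, adjusted p = 0.00294). Hapln4, at 15 and 27.8 CPM, had -0.83 ± 0.35 and an adjusted p of 0.0638 with edgeR, and it passed with DESeq2 (adjusted p = 0.0379). Hapln1 averaged 9.57 and 9.49 CPM, with an interval from -0.90 to 0.86. All nuclei include glia. With Kir2.1 the 8 oligodendrocyte markers had a median summed level of 2016 CPM there against 308 CPM in VIP nuclei. The 7 microglia markers were at 621 against 156 CPM, the 10 astrocyte markers at 457 against 421 CPM. The 8 oligodendrocyte precursor markers were at 205 against 172 CPM. Of these lists, in this order, 8, 7, 3 and 5 markers passed, all lower in VIP nuclei, against 32.6% of all genes. The part of glia in the Bcan, Ncan and Tnr differences was not tested.

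Between the 2 transduced populations with the mutant vector, 17.9% of 18359 genes passed and 7 of the 10 members did. The mutant libraries are shared with the comparisons that chose the genes, so the values of the 5 chosen genes are given as a description. Nothing is read from the count of members, which holds these 5. Ptprz1 was 36.7-fold lower in transduced neurons than in transduced VIP nuclei, 18.5 against 696 CPM (-5.20 ± 0.28). Col24a1 and Fbln2 were lower as well, by log2 fold changes of -2.64 ± 0.63 and -2.41 ± 0.29. Cnmd, at 1.97 against 30.7 CPM, had -3.89 ± 0.98; it is too low in neurons to pass the filter on low counts there and entered this fit through the VIP libraries. Tnr was 4.69-fold higher (2.23 ± 0.17), Matn2 3.51-fold (1.81 ± 0.23) and Ncan 2.12-fold (1.09 ± 0.22). Hapln1, Hapln4 and Bcan did not pass (adjusted p = 0.485, 0.0941 and 0.274); Hapln4 passed without mutant replicate 6 of VIP nuclei (adjusted p = 0.0360). Without mutant replicate 9 of the neurons, the Cnmd value was -4.70.

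Levels of different genes were compared per length, as mean CPM per kilobase of annotated exon. In non-transduced VIP nuclei with the mutant, Ptprz1 was the highest of the 10 at 47.6 CPM per kb, followed by Fbln2 at 21.6, Cnmd at 20.6 and Tnr at 11.6 CPM per kb, and Hapln1 was the lowest at 1.52. With Kir2.1 in transduced VIP nuclei Fbln2 led at 37.1 CPM per kb, Ptprz1 stood at 24.1 and Cnmd was last at 1.04. In transduced neurons with the mutant Tnr led at 38.8 CPM per kb, followed by Ncan at 15.2 and Matn2 at 9.46 CPM per kb, and with Kir2.1 Matn2, at 27.4, lay between Tnr at 37.2 and Ncan at 14.7.

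**Figure D4:**
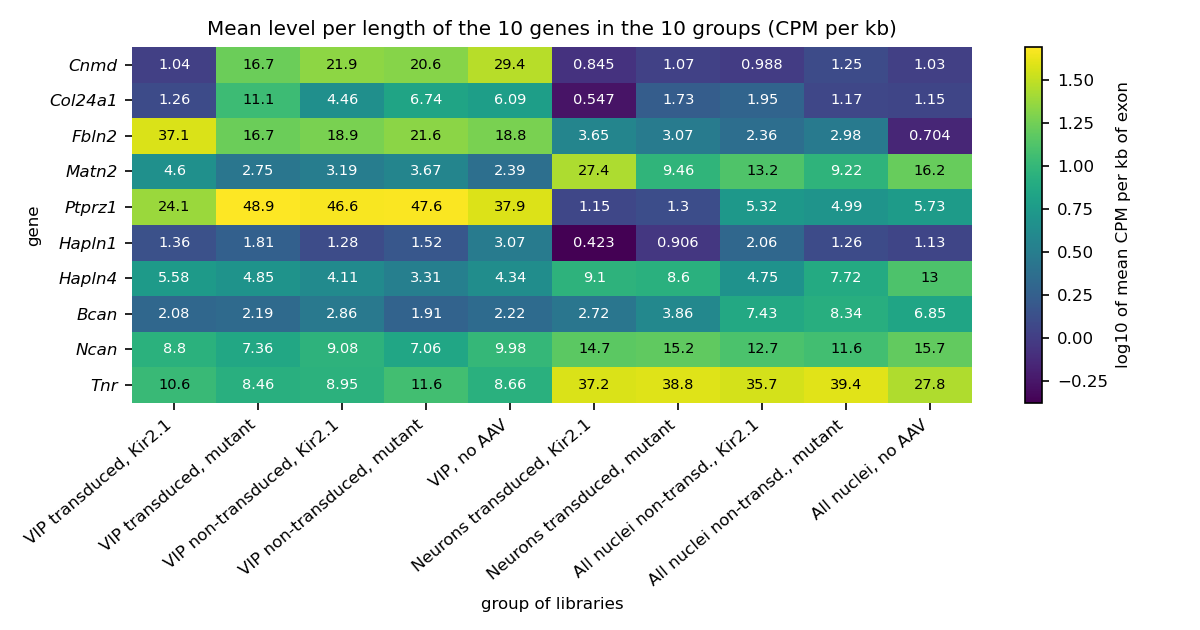
Mean CPM per kilobase of exon of each gene (rows) in each group (columns); numbers are the means and colour is their log10. Ptprz1 is the highest gene in 4 VIP groups (37.9 to 48.9 CPM per kb) and falls below Fbln2 in transduced VIP nuclei with Kir2.1 (24.1 and 37.1), and Tnr leads the other 5 groups (27.8 to 39.4).

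The groups fall into a few steps for each gene when neighbours in the order of means are told apart only where mean ± SD do not meet. Fbln2 had 2 such steps, from transduced VIP nuclei with Kir2.1 (237 CPM) to the other 4 VIP groups (107 to 138 CPM), which did not differ beyond their spread, and from these to the remaining 5 groups (4.49 to 23.3 CPM). Matn2 had 1, between transduced neurons with Kir2.1 (171 CPM) and the next group, all nuclei without AAV (102 CPM). Ptprz1 stepped down from VIP nuclei without AAV (540 CPM) to transduced VIP nuclei with Kir2.1 (344 CPM), then to all nuclei (71.1 to 81.7 CPM), and then to transduced neurons (16.4 and 18.5 CPM). Tnr had 1 step, between all groups of neurons or all nuclei (357 to 506 CPM) and the VIP groups (109 to 149 CPM). Cnmd had 1, from transduced VIP nuclei with the mutant (30.7 CPM) to the 6 groups at 2.30 CPM or less, and Col24a1, Hapln1, Hapln4, Bcan and Ncan had none between neighbours.

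The virus itself was checked against mice without AAV in non-transduced nuclei. In VIP nuclei 0.00943% of 21207 genes passed (median log2 fold change of all genes 0.12, of the members -0.03), and none of the 10 members passed with edgeR or DESeq2 or had an unadjusted p under 0.05. In all nuclei 0.211% of 21362 genes passed and none of the 10 members did with edgeR, while Fbln2 and Hapln4 had an unadjusted p under 0.05. Fbln2 averaged 4.49 ± 4.86 CPM without AAV (0, 3.81 and 9.65 CPM in the 3 libraries) and 16.9 CPM in the 19 injected ones, a log2 fold change of 1.89 ± 0.66, with an adjusted p of 0.331 by edgeR and 0.0395 by DESeq2. Hapln4 ran lower after injection, 24.2 against 51.0 CPM (-1.10 ± 0.49, adjusted p = 0.435 by edgeR). Sex was not balanced here, since the libraries without AAV were all from males.

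Beyond the 10 members, 286 other genes of 10 matrix lists were followed in the comparisons between vectors. The lists were chosen with earlier results of these data known, so their shares beside those of all genes are a description in both transduced populations. In transduced VIP nuclei 242 of them were tested, 3 rose and 5 fell with Kir2.1 (3.31%, against 1.39% of all genes), and their median log2 fold change was 0.05 against 0.04 over all genes; without the libraries that stand apart 3 rose and 2 fell. None of the 9 other hyaluronan and net genes tested passed. That list also holds Ptprz1, a member and so not counted here, which was lower with Kir2.1 in these nuclei. Mfap2, a microfibril protein of the same elastic fibre system as fibulins, rose 4.97-fold, from 7.74 ± 5.66 to 37.9 ± 15.6 CPM (adjusted p = 0.00449 by edgeR). Col7a1, an anchoring collagen, rose 2.89-fold and Glce, the epimerase of heparan sulfate, 2.17-fold. The heparan sulfate sulfotransferase genes Hs3st4 and Hs3st2 fell, Hs3st4 4.22-fold, from 63.3 ± 38.3 to 14.8 ± 9.06 CPM (adjusted p = 6.29e-05 by edgeR), and Hs3st2 2.17-fold, as did Col26a1 1.94-fold and the integrin gene Itga4 3.82-fold. Within the Kir2.1 cortices 5 of the 242 passed between transduced and non-transduced VIP nuclei (2.07%, against 0.769% of all genes): Glce rose, and Hs3st4, Hs3st2, the glypican gene Gpc3 (from 39.8 to 13.9 CPM) and Svep1, which was low at 3.30 and 0.120 CPM, fell.

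In transduced neurons 176 of these genes were tested, 11 rose and 25 fell (20.5%, against 5.63% of all genes), with a median of -0.16 against 0.04 over all genes. Scaling by library totals gave 13 and 19, and moved the split over all genes from 347 higher and 551 lower to 455 and 441. Of 36 genes that make or sulfate glycosaminoglycans 8 fell and none rose (list median -0.32), among them Ext1, which polymerises heparan sulfate, from 734 ± 85.9 to 432 ± 77.1 CPM (1.64-fold, adjusted p = 0.000723 by edgeR), Chsy3 and Csgalnact1, which build chondroitin sulfate, 1.91-fold and 1.53-fold. Among 24 collagens 4 rose and 3 fell (list median 0.06): Col23a1, a membrane collagen, rose 2.98-fold, and Col19a1 and Col26a1 fell 2.68-fold and 4.17-fold. Of the proteases and inhibitors Adamts2, a procollagen peptidase, rose 2.71-fold, from 35.7 ± 8.56 to 93.5 ± 30.3 CPM (adjusted p = 7.58e-05 by edgeR), Timp4 rose 1.88-fold and Adamts20 fell 2.30-fold.

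Of the 6 net genes tested in neurons apart from the members, Crtac1, which encodes a secreted cartilage acidic protein, rose from 118 ± 8.85 to 175 ± 17.2 CPM (1.54-fold, adjusted p = 0.00204 by edgeR), and Sema3a, a guidance cue that binds the chondroitin sulfate of nets, fell from 49.6 ± 16.6 to 25.4 ± 9.58 CPM (1.88-fold, adjusted p = 0.0265). Lama4 and Fras1 of basement membranes fell 3.42-fold and 1.83-fold, and Reln, a large glycoprotein secreted mainly by interneurons, fell 2.42-fold. Spon1, the gene of F-spondin, rose 1.54-fold, and of the 3 cartilage-type matrix genes tested, in the list that also holds Matn2, it alone passed. Slit2, a guidance cue, fell 1.94-fold, and Ptprd, a receptor phosphatase of another subfamily than Ptprz1, fell from 9323 ± 2095 to 5250 ± 1421 CPM (1.72-fold). The GABAergic and astrocyte markers given beside Matn2 moved with this comparison too, and their part in these counts was not tested.

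**Figure D5:**
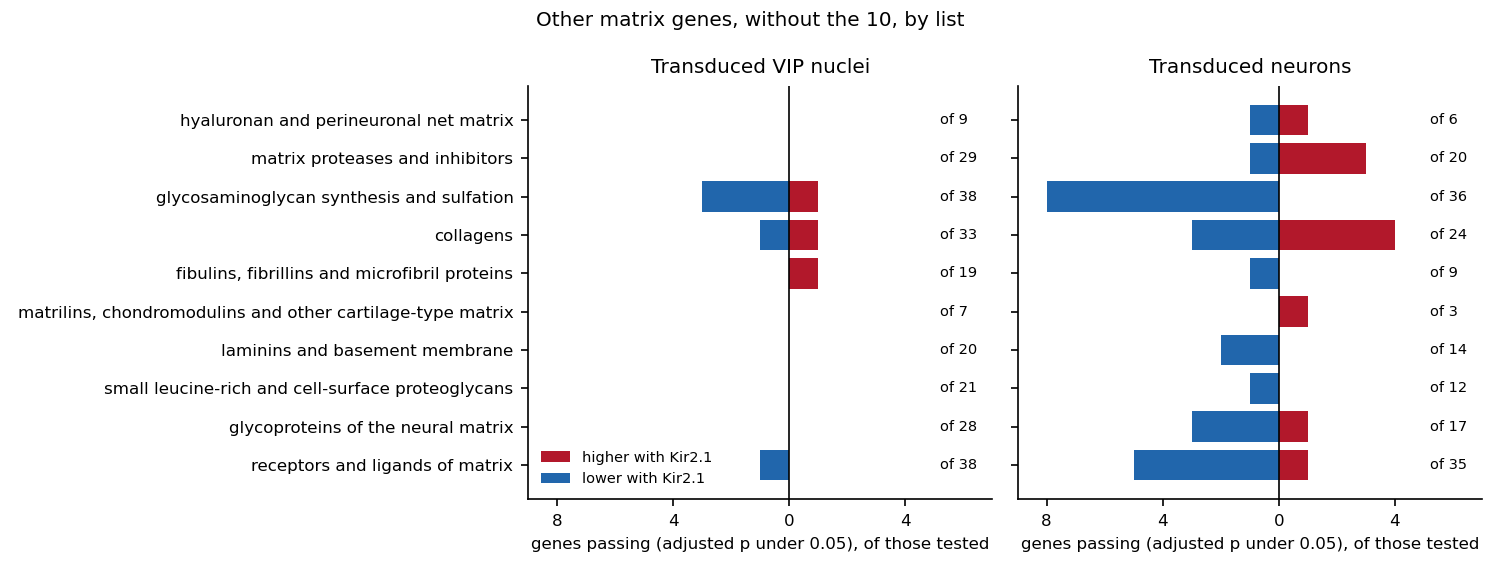
Number of genes in each of 10 matrix lists, without the 10 members, that passed edgeR's test at an adjusted p under 0.05 between Kir2.1 and mutant (red to the right higher, blue to the left lower with Kir2.1), with the number tested at the right of each row. In transduced VIP nuclei 3 were higher and 5 lower of 242, and in transduced neurons 11 were higher and 25 lower of 176.

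Aggrecan, the lectican that most defines nets, was close to 0 in these libraries: Acan averaged 0.428 CPM with Kir2.1 and 0.176 CPM with the mutant in transduced VIP nuclei, with 0 counts in 7 libraries of each, and 1.66 and 1.63 CPM in transduced neurons. Vcan averaged 3.90 and 2.77 CPM in transduced VIP nuclei and 2.69 and 9.05 CPM in transduced neurons (log2 fold change -1.68 ± 0.67, adjusted p = 0.155 by edgeR). Ptn, the gene of pleiotrophin, a ligand of the Ptprz1 protein, had the opposite distribution to its receptor: it was 8.51-fold lower in VIP nuclei than in all nuclei, at 16.3 ± 8.53 and 138 ± 30.8 CPM (adjusted p = 4.78e-21 by edgeR). Cntn6, a contactin, was 3.75-fold higher in VIP nuclei, at 656 ± 123 and 175 ± 63.0 CPM.

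The genes whose mean log2(CPM + 1) over the 10 groups was most like that of each member were found among 16006 genes, by Pearson's r as a description, since the 10 points share populations and libraries. For Ptprz1 these were Gm11146 (r = 0.993) and Dock11 (r = 0.988), for Cnmd 4930526F13Rik (0.964) and Mettl8 (0.958), for Col24a1 Lgi2 (0.968) and Naf1 (0.947), and for Fbln2 Tacc2 (0.979). For Matn2 they were Tnfrsf23 (0.981) and 1700003D09Rik (0.979), for Tnr Rasgef1b (0.997) and Prex1 (0.995), for Ncan Abcb9 (0.986) and Chrm1 (0.985), and for Bcan Wdfy4 (0.981) and Sla (0.978). Hapln1 and Hapln4 had less similar neighbours, Scarb2 (0.948) and Txndc16 (0.933) for Hapln1, and Gm17108 (0.932) and Rwdd2b (0.931) for Hapln4. Among the members, Cnmd and Col24a1 were most alike in pattern of the 5 genes chosen for their difference (r = 0.881), and Ptprz1 and Tnr ran most opposite (r = -0.942).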

How the data were processed

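The authors deposited raw counts of reads per gene, whole numbers with no normalization, in a single table with 79 library columns. Per the submitters' processing notes the tools were cutadapt 1.18, STAR 2.5.3a and HOMER 4.9.1 on mm10; how reads were assigned to genes, and whether strand was used, is not given in the sources used here. GENCODE vM21 named 55154 of the 55335 identifiers (the other 181 hold 0.0264% of counts). Members and gene lists were chosen with earlier results of these data known. Genes were tested with edgeR 4.0.16 in R 4.3.3 (quasi-likelihood F test, TMM, filterByExpr with minimum count 10 and total 15) in fits of 41 VIP, 22 all-nuclei, 16 neuron, 44 non-transduced and 35 transduced libraries. P-values are two-sided, Benjamini-Hochberg adjusted over all genes of a fit, with a threshold of 0.05. The SE is the log2 fold change over the square root of F. CPM used 1 TMM scaling of the 79 libraries. Reads carry no molecular identifiers, so intervals cover what the libraries' spread shows. Other matrix genes were named where they passed, at most the 3 of smallest adjusted p per list and comparison; Acan and Vcan were added after their values were seen. The 2 genes nearest each member by pattern were taken from those with a mean of at least 5 CPM in 1 group; 1 of them is not reported here. Alternatives were DESeq2 1.42.0, other scalings, no filter, a sex term, a replicate block and libraries left out.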

Additional observations from a re-analysis of the deposited data

Results flagged for a closer look

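In 80 groups of library values (a member in a group of 8 to 10 libraries), 6 had a highest library set off from the others beyond Dixon's 95% limit, and chance gives about 1 in 20. For Fbln2 these were, in transduced VIP nuclei, Kir2.1 replicate 4 at 345 CPM and mutant replicate 3 at 164 CPM. Tnr stood at 217 CPM in Kir2.1 replicate 6 of the same nuclei. Hapln4 stood at 40.8 CPM in mutant replicate 6 of transduced VIP nuclei and at 69.2 CPM in mutant replicate 5 of all non-transduced nuclei. Bcan stood at 34.9 CPM in Kir2.1 replicate 3 of non-transduced VIP nuclei. None of these libraries is among the 4 that stand apart from their group's profile.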

How the results depend on the processing

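No member reversed a passed result under any alternative run. Where members were tested, the same number passed under RLE size factors, no filter, a sex term and without the libraries that stand apart. Library totals, added after seeing the data, gave the same number too. Nothing is read from this for genes chosen in the libraries compared. DESeq2 and the replicate block each added Hapln4 between VIP and all nuclei (9 members), and DESeq2 called 1 member, Fbln2, against no AAV in all nuclei. Over all genes, DESeq2 gave 1388 calls in transduced neurons (898 with edgeR), 14 and 2 between vectors in non-transduced VIP and all nuclei, and 72 and 382 against no AAV in VIP and all nuclei. Without the filter there were 10897 calls between VIP and all nuclei, and 214 and 289 against no AAV. A sex term gave 6 for VIP nuclei against no AAV. With the replicate block there were 526 calls in transduced neurons (8 matrix genes higher and 11 lower), 5 between transduced and non-transduced VIP nuclei with the mutant, and 34 for VIP nuclei against no AAV. Equal numbers were not taken as pairs in the main tests. In 0 of the 10 pairs of groups did every same-numbered pair correlate over 0.1 (deviations from group means). Kir2.1 and mutant, given to different mice, had -0.0912 to 0.063 in transduced VIP nuclei, where 1 of 9 libraries correlated best with its own number. Within a vector this number was 6 of 10 (Kir2.1) and 6 of 9 (mutant) between transduced and non-transduced VIP nuclei. Between VIP and all nuclei it was 5 of 10 (Kir2.1), 5 of 9 (mutant) and 2 of 3 (no AAV), and between the transduced populations 3 of 8. Such libraries may therefore not be independent, and no label says which share an animal. Sex labels differ within some equal numbers of a vector: Kir2.1 replicate 8 is labelled male in transduced VIP nuclei and female in its other groups. The replicate block grouped such libraries all the same. The replicate block changed no other member's call. No library of all nuclei stood apart, so leaving such libraries out gave no value there.

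Leaving out 1 library at a time gave 219 to 429 calls in transduced VIP nuclei, 639 to 1062 in transduced neurons, 0 to 0 between vectors in both non-transduced populations, and 116 to 195 (Kir2.1) or 2 to 2 (mutant) between transduced and non-transduced VIP nuclei. It gave 6537 to 6832 between VIP and all nuclei and 3047 to 3456 between the transduced populations. Against no AAV it gave 0 to 4 in VIP nuclei (0 without replicate 3 of the group without AAV; 4 without its replicate 1 or 2 or without mutant replicate 3) and 23 to 60 in all nuclei (23 without replicate 2 of the group without AAV). Members that passed numbered 8 to 9 between VIP and all nuclei, and 0 to 0 between vectors in non-transduced nuclei and against no AAV. They numbered 4 to 4 within Kir2.1, 0 to 0 within the mutant and 7 to 8 between the transduced populations. These last comparisons share libraries with those that chose the genes, so for the chosen genes nothing is read from the numbers. Hapln4 between VIP and all nuclei was the 1 member whose call turned on several libraries: it passed without replicate 5, 6 or 10 of non-transduced VIP nuclei or replicate 8 or 10 of all nuclei, all with Kir2.1 (adjusted p by edgeR down to 0.0325). It also passed between the transduced populations without mutant VIP replicate 6. Low counts limit Cnmd outside VIP nuclei, and Hapln1 and Bcan throughout: the interval of Cnmd between vectors in all nuclei ran from -2.62 to 1.98.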
